A study of Mus musculus with 19 samples.

Results

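The interferon-stimulated genes (ISGs) described here were 52 of the 27299 genes in the expression table of mouse retinal microglia, selected by gene symbol, and all 52 symbols had a row. ISGs are switched on when a type I interferon such as interferon beta binds its receptor, IFNAR1 with IFNAR2, on the cell surface. The kinases JAK1 and TYK2 then activate transcription factors, among them STAT2 with IRF9, that bind interferon-stimulated response elements (ISREs) in the promoters of ISGs. Interferon gamma acts through IFNGR1 and IFNGR2, and its response runs through gamma-activated sites (GAS). Microglia, the resident macrophages of the retina, are known to express such genes in injured and degenerating nervous tissue. The products block viral replication, sense foreign nucleic acid or regulate the response itself.

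Microglia were sorted from the central retina of mice 3 days after laser induction of choroidal neovascularization (CNV d3, n = 6) and of unlasered mice dissected in the same way (control, n = 6). Laser CNV is a model in which burns rupture Bruch's membrane and vessels grow from the choroid towards the retina. The labels describe mice of 8 weeks on the C57BL/6J background and CD45+ cells, whereas the methods of the study describe heterozygous Cx3cr1 GFP/+ mice and a CD45lo gate, in both groups, with CD11b+ CX3CR1+ Ly6C- Ly6G- cells collected. Whether the samples of a group came from separate mice or from pools is not stated, so the p-values measure the spread between samples, which may be technical. CX3CR1 and CD11b are also carried by other macrophages and by monocytes.

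The values are DESeq2-normalized read counts, called normalized counts below. Control libraries held 10963178 to 22335233 reads on genes and CNV d3 libraries 23532260 to 29523018, so that a single read was worth 1.00 to 1.99 normalized counts in controls and 0.739 to 0.895 at CNV d3. The summed level of 10 microglial marker genes was 1354510 to 1524980 normalized counts in controls and 754090 to 1135280 at CNV d3, and 7 of the 10 were lower at CNV d3. The sum of 9 monocyte markers was 247 to 473 in controls and 755 to 3457 at CNV d3, with 4 of the 9 higher and 3 at 0 in all controls. Of 6 dendritic cell markers, 3 were higher at CNV d3, from a sum of 3.38 to 531 in controls to 208 to 1064. Markers of neutrophils and of T and NK cells summed to at most 29.3 in any sample. The sum of 8 rod photoreceptor markers was 865 to 7437 in controls and 645 to 13026 at CNV d3, with 0 of the 8 called. The part of these other cells in the ISG values was not tested, and in bulk samples more cells of a type and more RNA per cell cannot be told apart.

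The promoters of the ISGs were examined first, since the ISRE is the sequence that IRF9 and other interferon regulatory factors recognise. RefSeq promoters of GRCm38.p6, from 250 bases before to 50 bases after a gene's start, were matched for 42 of the 52 genes. An ISRE, searched as GAAANNGAAA on either strand, was present in 25 of the 42 (59.5%), against 3.99% of 27025 genes in the whole table. A GAS, searched as TTCNNNGAA, was present in 9 of the 42 (21.4%), against 9.55% of all genes. Both motifs share bases in 1 of the 50 promoter entries of the ISGs. Of 28 entries with an ISRE, 23 had the last one end within 150 bases before the start. The windows below are 50 bases of GRCm38.p6 read 5′ to 3′ along the strand of the gene, with the ISRE in capitals. They are shown because they cover an IFIT gene, ISG15, an antiviral effector, an OAS gene and a guanylate-binding protein. Bst2 and Igtp are added because genes that were not called carry the motif too, and Isg15 was not called either.
Ifit1, chr19:34640784-34640833, plus strand: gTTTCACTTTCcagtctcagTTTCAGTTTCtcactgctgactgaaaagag
Isg15, chr4:156200855-156200904, minus strand: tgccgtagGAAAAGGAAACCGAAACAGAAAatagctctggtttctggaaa
Rsad2, chr12:26456543-26456592, minus strand: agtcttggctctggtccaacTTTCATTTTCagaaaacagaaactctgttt
Oas3, chr5:120777705-120777754, minus strand: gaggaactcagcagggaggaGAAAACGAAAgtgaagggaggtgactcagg
Gbp7, chr3:142530263-142530312, plus strand: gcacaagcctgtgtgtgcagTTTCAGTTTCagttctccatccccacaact
Bst2, chr8:71537567-71537616, minus strand: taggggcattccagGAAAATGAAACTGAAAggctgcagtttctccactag
Igtp, chr11:58199502-58199551, plus strand: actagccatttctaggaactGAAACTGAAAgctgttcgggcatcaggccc
The motif stands singly in Oas3, Gbp7, Rsad2 and Igtp, as overlapping copies in Isg15 and Bst2 and as separate copies in Ifit1. Of the 25 genes with an ISRE in the window, 17 were higher at CNV d3, as were 10 of the 17 without these letters and 6 of the 10 genes not matched. These are counts without a test.

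To ask how the ISGs differed between CNV d3 and control microglia, log2(normalized counts + 1) was compared with limma across all genes. Of the 52 ISGs, 33 were higher at CNV d3 at a Benjamini-Hochberg adjusted p under 0.05 and 0 were lower. Of all 27299 genes, 8.29% were higher and 4.57% lower. An unadjusted p under 0.05 was given to 44 ISGs, each with a higher fitted level, and to 6892 of all genes in either direction. The threshold of the study also asks for a log2 fold change above 1.5. By limma 17 ISGs met it as increased differentially expressed genes (DEGs), against 3.91% of all genes. The study applied its threshold to DESeq2 results, whereas DEG here refers to limma. The fitted change was upward in 51 of the 52, with a median log2 fold change of 1.26, compared with 0.15 over all genes. Since 50 of the ISGs had a mean of at least 50 normalized counts, genes of that level are the closer background. Of those 10756 genes 14.9% were higher and 4.26% were increased DEGs, with a median log2 fold change of 0.08. In either direction, 4653 of them had an unadjusted p under 0.05. In 10 ISGs every CNV d3 sample lay above every control sample, a pattern of 4.64% of all genes and 9.45% of genes with a mean of at least 50. The quasi-likelihood test of edgeR called 31 ISGs higher and DESeq2 33, each with 0 lower. With the fold change threshold as well, edgeR gave 14 increased DEGs and DESeq2 15.

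The number of called ISGs depended on single libraries. It fell from 33 to 20 without control replicate 2, and to 20, 15, 21, 21 and 14 without CNV d3 replicates 2, 3, 4, 5 and 6. Without control replicate 4, 5 or 6 it also fell, but stayed within 1.5 times of 33. It was 32 without control replicate 1, 36 without control replicate 3 and 30 without CNV d3 replicate 1. The median log2 fold change stayed between 1.13 and 1.49 over the 12 fits that left out a library. Of the 33 called ISGs, 13 were called under each of the 22 alternative settings: Ifit1, Ifit3b, Rsad2, Mx1, Ifi44, Zbp1, Ifi204, Ifi207, Ifi209, Ifi211, Gbp2, Gbp3 and Gbp7. Slfn1 was called under the 21 settings that tested it and was removed by the filter on low values. The other 19 lost their call under at least 1 setting. Another 12 ISGs were called under none of the settings, among them Rtp4, Mx2, Ddx58, Igtp and Gbp5. In genes with a control at or near 0 the size of the change depended on the test as well. The log2 fold change was smaller with edgeR than limma in Ifi44 (3.42 against 4.70), Mndal (2.99 against 4.42) and Oas1g (2.701 against 3.62). So it was in Oas3 (1.98 against 2.67), Gbp5 (1.497 against 2.94), Ifi213 (1.43 against 3.40) and Mx2 (1.20 against 2.33). In Slfn1 and Ifi47, with few or no reads in controls, edgeR gave larger values instead, and neither gene gives a usable fold change.

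**Figure D1:**
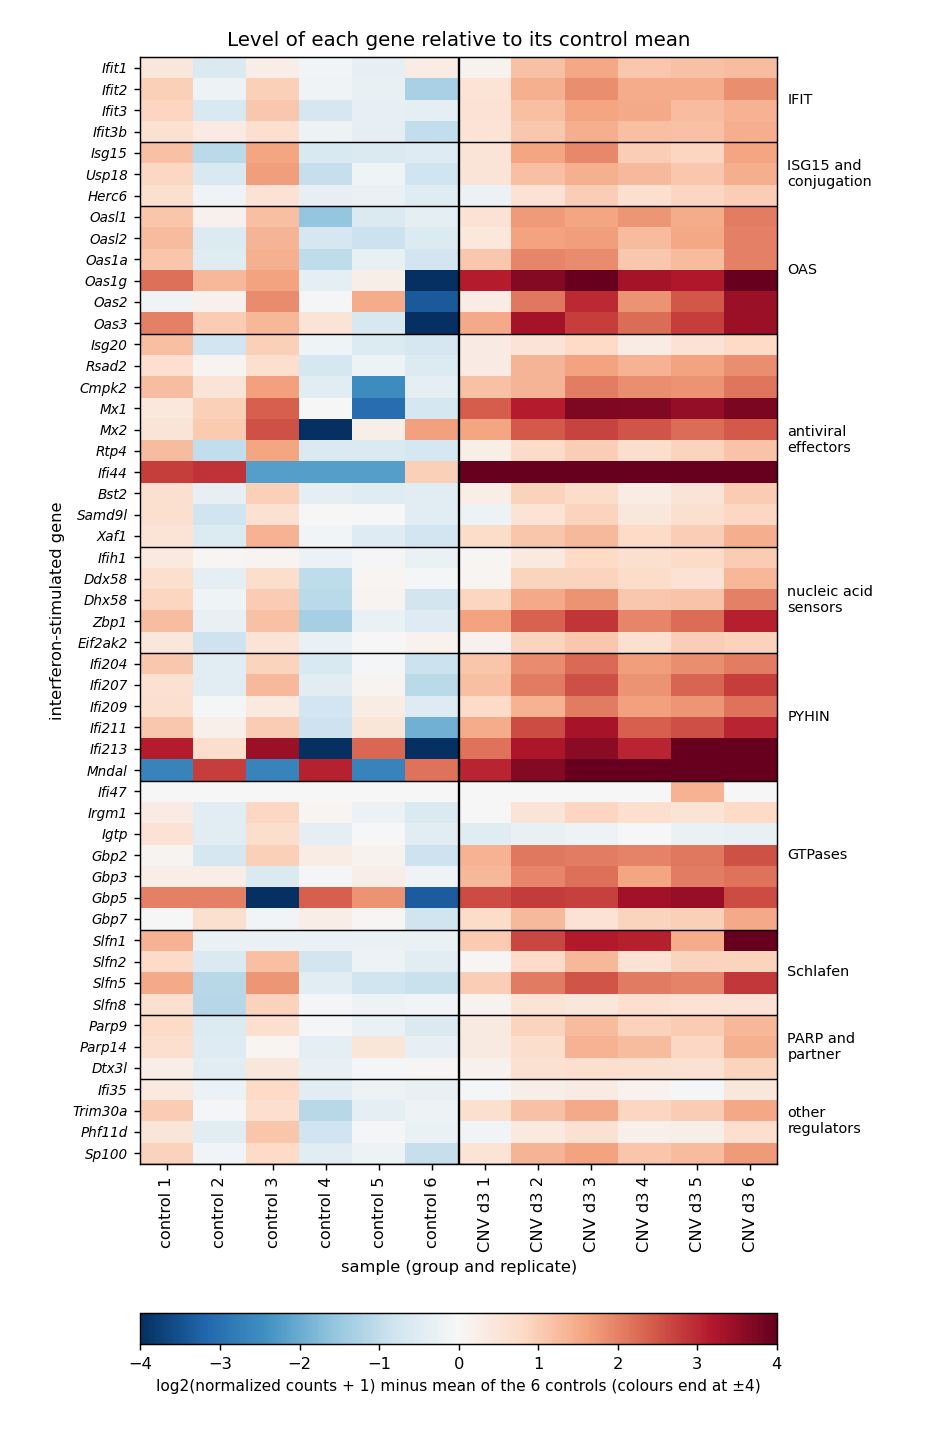
Heat map of the 52 ISGs (rows, by role) in the 12 samples (columns), as log2(normalized counts + 1) minus the mean of the 6 controls for that gene, with red above and blue below it. CNV d3 replicates 2 to 6 are red in most rows, CNV d3 replicate 1 is paler, and control replicates 1 and 3 are red in most rows where the other controls are pale or blue.

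**Figure D2:**
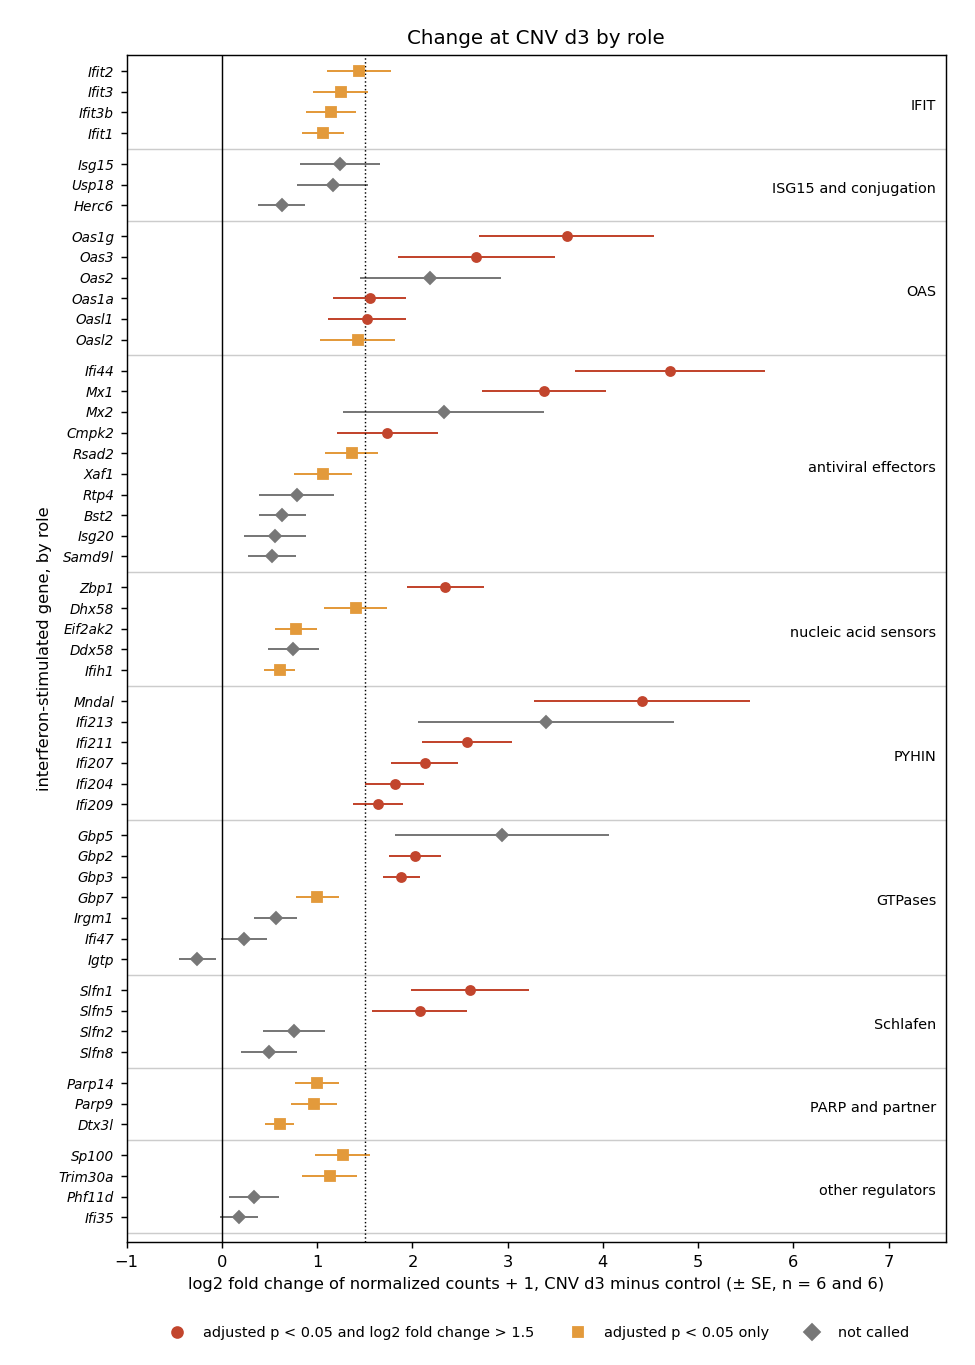
Log2 fold change of normalized counts + 1 (CNV d3 minus control, x axis) with its standard error for each of the 52 ISGs, grouped by role, n = 6 and 6. The 17 increased DEGs (circles) are spread over the OAS, antiviral effector, sensor, PYHIN, GTPase and Schlafen groups, and Igtp alone lies below 0, while the positions of Slfn1 and Ifi47, which had few or no reads in controls, rest on the pseudocount of 1.

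The guanylate-binding proteins, interferon-inducible GTPases that coat vacuoles of intracellular pathogens, held the 2 ISGs with the smallest adjusted p. Gbp3 (chr3:142560026-142573209, GRCm38) was at 266 normalized counts in the lowest control, 428 at the median and 485 in the highest, and at 1016, 1601 and 1863 at CNV d3. The groups lay wholly apart (log2 fold change 1.88 ± 0.19 SE, adjusted p = 3.1e-05 by limma). Gbp2 (chr3:142620602-142638008) rose from 230.4, 450 and 792 in controls to 1078, 1737 and 2392 (log2 fold change 2.03 ± 0.27 SE, adjusted p = 0.000218 by limma). Gbp7 also passed the test, with 306, 538 and 836 normalized counts in controls and 808, 1020.2 and 1542 at CNV d3 (log2 fold change 1.00, adjusted p = 0.00774 by limma). In Gbp7 5 of the 6 CNV d3 samples were above the highest control. Gbp5 did not pass the test (adjusted p = 0.108 by limma) although all CNV d3 samples, at 180.3 to 332, were above all controls. The controls of Gbp5 ranged from 0 in replicate 3 and 1.99 in replicate 6 to 154 in replicate 4, and its log2 fold change of 2.94 was 1.96 without control replicate 3 and 2.27 without control replicate 6.

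The immunity-related GTPases, a second family of interferon-inducible GTPases directed at intracellular pathogens, gave other values. Igtp (Irgm3) was the only ISG with a fitted decrease, at 2256, 2724 and 5074 normalized counts (lowest, median and highest) in controls and 2233, 2548 and 3116 at CNV d3 (log2 fold change -0.26 ± 0.20 SE, adjusted p = 0.467 by limma). The groups overlapped throughout, and the highest values belonged to control replicates 3 and 1. Irgm1, a regulator of the other members of this family, had a log2 fold change of 0.56 and was not called (adjusted p = 0.128 by limma), though it was without control replicate 3 (adjusted p = 0.0285). Ifi47 had no read in any sample but CNV d3 replicate 5, at 1.602 normalized counts, so no change is given. Of its exon bases 8.77% overlap other genes, Olfr56 among them, and reads there were not counted.

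PYHIN proteins, which include cytosolic and nuclear DNA sensors, had 5 of 6 members among the increased DEGs. The 6 genes lie together on chromosome 1, from 173566283, the start of Ifi213, to 173942491, the end of Mndal (GRCm38). Ifi204, a DNA sensor and the most abundant of them over the 12 samples, was at 1062, 1634 and 4097 normalized counts in controls (lowest, median, highest) and at 4202, 7106 and 9344 at CNV d3 (log2 fold change 1.81 ± 0.31 SE, adjusted p = 0.00128 by limma). Ifi207 rose from 421, 803 and 2172 to 2066, 4145 and 6061 (log2 fold change 2.13 ± 0.35 SE, adjusted p = 0.000982 by limma), and CNV d3 replicate 1 was the single sample below the highest control. Ifi209 and Ifi211 did not overlap between the groups, with log2 fold changes of 1.64 and 2.57 (adjusted p = 0.000909 and 0.00208 by limma).
Mndal was at 0 in control replicates 1, 3 and 5, at 27.8 to 52.8 in the other 3 controls and at 51.7 to 342 at CNV d3. Its log2 fold change was 4.42 ± 1.13 SE (adjusted p = 0.0175 by limma), and edgeR did not call it (adjusted p = 0.0651), nor did 8 of the 12 fits without a library. Ifi213 was at 427 and 528 in control replicates 1 and 3, at 0 and 2.03 in control replicates 6 and 4 and at 218 to 934 at CNV d3, and was not called (adjusted p = 0.118 by limma). Its log2 fold change of 3.40 was 2.28 without control replicate 6 and 2.60 without control replicate 4. Some of these genes share sequence with other genes of the family: 72.8% of the 50-base windows in Ifi211 transcripts also occur in other genes, mostly Ifi205, 33.7% in Ifi209, 20.02% in Ifi204, 19.6% in Mndal, 15.6% in Ifi213 and 7.29% in Ifi207. Reads of such windows cannot be placed on a single gene and were not counted, so the level of Ifi211 above all is uncertain.

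OAS proteins make 2'-5' oligoadenylates that activate RNase L when they meet double-stranded RNA, whereas OASL1 is a relative that lacks this activity. Of the 6 genes 5 were higher at CNV d3 and 4 were increased DEGs. Oasl2, the most abundant in normalized counts, was at 1227, 1509 and 5621 in controls and 2973, 6570 and 8843 at CNV d3 (lowest, median, highest), with a log2 fold change of 1.42 ± 0.39 SE (adjusted p = 0.0264 by limma). Oas1a was at 385, 599.7 and 2103 in controls and 1636, 2408 and 3173 at CNV d3 (log2 fold change 1.55 ± 0.38 SE, adjusted p = 0.0146 by limma). In both genes the highest control was replicate 3, and it lay above the lowest CNV d3 sample. Oasl1 had a log2 fold change of 1.52 ± 0.41 SE (adjusted p = 0.0212 by limma), from a control median of 450.0 to 1472.
Oas1g and Oas3 were at lower levels, with control medians of 56.0 and 97.8 and CNV d3 medians of 350.2 and 384. Control replicate 6, the shallowest library, was at 0 in Oas1g and 1.99 in Oas3, and their log2 fold changes were 3.62 ± 0.92 SE and 2.67 ± 0.82 SE (adjusted p = 0.0165 and 0.0452 by limma). Without that library the log2 fold changes were 2.63 and 1.82. Oas2 ranged from 11.9 to 494 in controls and 163 to 1459 at CNV d3 and did not pass (log2 fold change 2.19, adjusted p = 0.0673 by limma), though edgeR and DESeq2 called it (adjusted p = 0.0495 and 0.0170). Oas1a and Oas1g share 57.6% and 45.7% of their 50-base windows with other genes, mostly each other, so their separate levels are uncertain. The calls of Oasl1, Oasl2, Oas1a, Oas1g and Oas3 held in 3, 3, 4, 5 and 2 of the 12 fits that left out a library.

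All 4 IFIT genes, whose products bind viral RNA that lacks host cap methylation, were higher at CNV d3, by similar amounts, and none reached the fold change of a DEG. Ifit2 (chr19:34550694-34576419) was at 1039, 2253 and 4947 normalized counts in controls (lowest, median, highest) and at 3709, 7054 and 9237 at CNV d3 (log2 fold change 1.44 ± 0.33 SE, adjusted p = 0.00968 by limma). Ifit3 was at 1235, 1568 and 4154 in controls and 2960, 4916 and 5879 at CNV d3 (log2 fold change 1.25 ± 0.29 SE, adjusted p = 0.0105 by limma). For both, 5 of 6 CNV d3 samples exceeded all controls and CNV d3 replicate 1 lay below control replicates 1 and 3. Ifit1 and Ifit3b had log2 fold changes of 1.06 and 1.15 (adjusted p = 0.00546 and 0.00935 by limma). The calls of Ifit1 and Ifit3b held in all 12 fits that left out a library, that of Ifit2 in 10 and that of Ifit3 in 8. Ifit3 and Ifit3b share 51.2% and 45.003% of their windows with other genes, and their separate counts are uncertain.

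The ISG15 group had no member called by limma. All 3 had an unadjusted p under 0.05, as had 4653 of the 10756 genes with a mean of at least 50. ISG15 is a ubiquitin-like modifier, USP18 removes it from proteins and dampens receptor signalling, and HERC6 is its ligase in mice. Isg15 was at 331, 476 and 2092 normalized counts in controls and 1003, 1719 and 2657 at CNV d3 (log2 fold change 1.24 ± 0.42 SE, adjusted p = 0.0671 by limma). Usp18 was at 699, 1021 and 4204 in controls and 1915, 3136 and 3664 at CNV d3 (log2 fold change 1.16 ± 0.37 SE, adjusted p = 0.0545 by limma). In each gene the highest control was replicate 3, above 5 of 6 CNV d3 samples for Isg15 and all 6 for Usp18. Without control replicate 3 both were called, with adjusted p = 0.0225 for Isg15 and 0.00776 for Usp18 by limma. Herc6 had a log2 fold change of 0.63 (adjusted p = 0.118 by limma), and was called only without CNV d3 replicate 1 (adjusted p = 0.0385).

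Of 10 antiviral effectors 5 were higher and 3 were increased DEGs. Mx1, the gene of a dynamin-like GTPase, was at 9.03, 95.3 and 429 normalized counts in controls and 445, 1003 and 1115 at CNV d3 (log2 fold change 3.38 ± 0.65 SE, adjusted p = 0.00294 by limma), without overlap. Ifi44 was at 0 in control replicates 3, 4 and 5, at most 33.4 in the others and at 73.1 to 211 at CNV d3 (log2 fold change 4.70 ± 0.99 SE, adjusted p = 0.00553 by limma). That fold change rests on the pseudocount, with a log2 value of 5.22 at a pseudocount of 0.5 and 3.45 at 5. Cmpk2, a mitochondrial nucleotide kinase that neighbours Rsad2 on chromosome 12, had a control median of 384 and a CNV d3 median of 1256 (log2 fold change 1.74 ± 0.53 SE, adjusted p = 0.0426 by limma). Its call was lost in 10 of the 12 fits without a library and with edgeR (adjusted p = 0.0638). Rsad2, which encodes viperin, had a control median of 983 and a CNV d3 median of 2848 (log2 fold change 1.36 ± 0.28 SE, adjusted p = 0.00415 by limma), and Xaf1 passed at a log2 fold change of 1.06 (adjusted p = 0.0336), a call that held in 2 of those 12 fits.

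The most abundant effectors did not pass the test. Bst2, the tether that holds budding virions at the membrane, was at 2679, 2932 and 7355 normalized counts in controls and 4573, 5831 and 7633 at CNV d3 (log2 fold change 0.63 ± 0.25 SE, adjusted p = 0.115 by limma), but was called without control replicate 3 (adjusted p = 0.0308). Rtp4 was at 6573 and 8211 in control replicates 1 and 3, at 1383 to 1843 in the other 4 controls and at 3229 to 6058 at CNV d3 (log2 fold change 0.79 ± 0.40 SE, adjusted p = 0.237 by limma). Thus the 2 highest of the 12 Rtp4 values were controls and the 4 lowest were controls as well. Mx2, Isg20 and Samd9l had log2 fold changes of 2.33, 0.56 and 0.52 (adjusted p = 0.180, 0.324 and 0.208 by limma), and Mx2 was at 0 in control replicate 4, without which its log2 fold change was 1.13. Part of the exons of Rtp4, 13.9% of their bases, overlaps Gm45338.

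**Figure D3:**
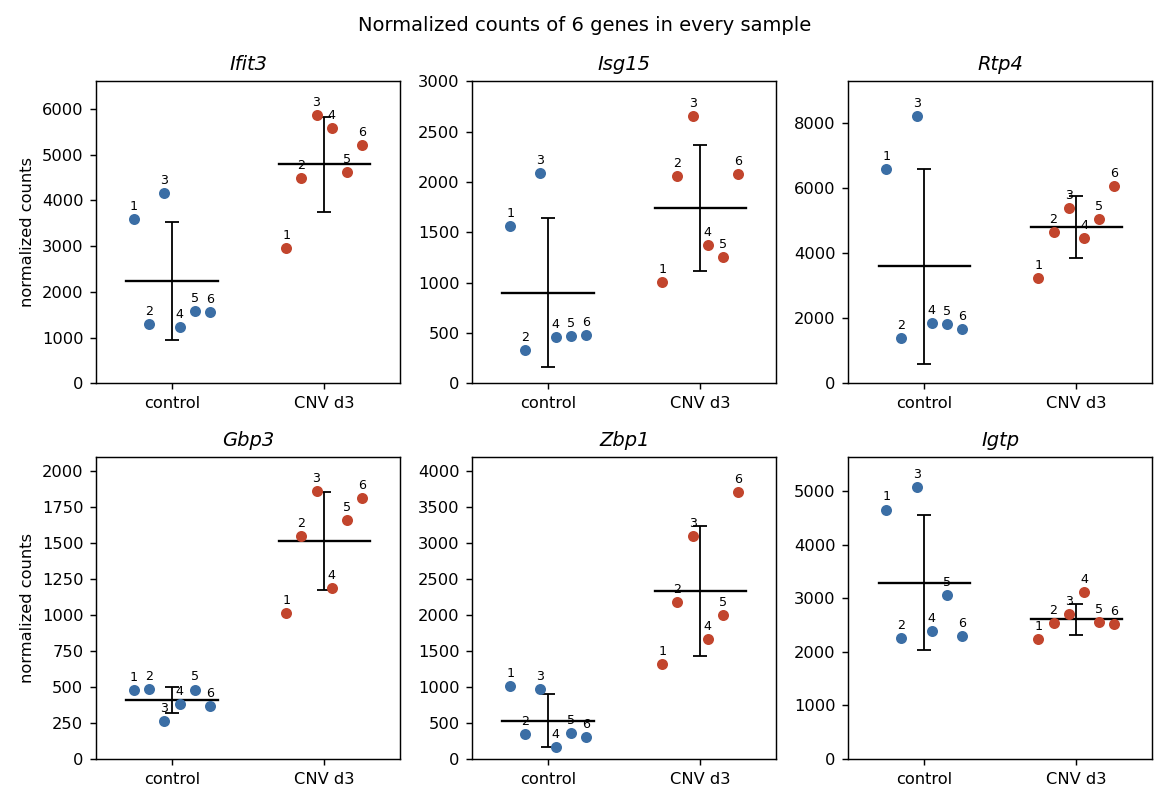
Normalized counts (y axis) of Ifit3, Isg15, Rtp4, Gbp3, Zbp1 and Igtp in each control and CNV d3 sample, numbered by replicate, with the mean (horizontal line) and SD (error bar) of each group, n = 6 and 6. The groups lie apart in Gbp3 and Zbp1, while control replicates 1 and 3 lie among or above the CNV d3 samples in Ifit3, Isg15, Rtp4 and Igtp.

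Among the nucleic acid sensors, Zbp1 changed most and was the only increased DEG of the 5. ZBP1 binds Z-form nucleic acid and can trigger necroptosis. It was at 169, 352 and 1017 normalized counts in controls and 1316, 2095 and 3709 at CNV d3 (log2 fold change 2.35 ± 0.40 SE, adjusted p = 0.00125 by limma), with no overlap. Dhx58, Eif2ak2 and Ifih1, which encode LGP2, the kinase PKR and the RNA sensor MDA5, rose with log2 fold changes of 1.40, 0.78 and 0.60 (adjusted p = 0.0107, 0.0306 and 0.0231 by limma), and their calls held in 8, 3 and 4 of the 12 fits without a library. Ifih1 had the smallest SD between controls of the ISGs with a control mean of at least 50, at 0.24 on the log2 scale. Ddx58, which encodes RIG-I and had the highest mean normalized counts of the sensors, though not per kilobase of exon, was at 871, 1765 and 2880.2 in controls and 1849, 3105 and 4394 at CNV d3, and did not pass (log2 fold change 0.75 ± 0.27 SE, adjusted p = 0.086 by limma).

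Of the 4 Schlafen genes, which lie within chr11:82951349-83122670, Slfn5 and Slfn1 were called. Slfn5 was at 81.0, 114 and 592 normalized counts in controls and 344, 745 and 1244 at CNV d3 (log2 fold change 2.08 ± 0.50 SE, adjusted p = 0.0119 by limma), and its call held in 8 of the 12 fits without a library. Slfn1 was at 0 in 5 controls, at 2.15 in control replicate 1 and at 1.48 to 20.8 at CNV d3. It passed the test (adjusted p = 0.0114 by limma), but so few reads in the controls give no usable fold change. Slfn2 and Slfn8 had log2 fold changes of 0.75 and 0.49 and were not called (adjusted p = 0.159 and 0.337 by limma), and Slfn2 was called without control replicate 3 (adjusted p = 0.0450).

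Parp9, Parp14 and Dtx3l, an ADP-ribosyltransferase pair with its ubiquitin ligase partner, all rose, with log2 fold changes of 0.97, 1.00 and 0.60 (adjusted p = 0.0148, 0.0102 and 0.0142 by limma). Their calls held in 4, 10 and 10 of the 12 fits without a library. Dtx3l was at 2537, 3359 and 4600 normalized counts in controls (lowest, median, highest) and 3824, 5214 and 6296 at CNV d3, and Parp9 at 1575, 2136 and 4028 and then 3021, 4663 and 5989. Their start regions overlap on chromosome 16, with 9.40% of the exon bases of Parp9 inside Dtx3l. Of 4 other regulators, Sp100, a nuclear body protein, and Trim30a, a ubiquitin ligase that restrains inflammatory signalling, passed with log2 fold changes of 1.27 and 1.13 (adjusted p = 0.00851 and 0.0183 by limma), in 11 and 4 of those fits. Sp100 had medians of 1994 and 5565, and Trim30a of 2319 and 5366, in controls and at CNV d3. Phf11d and Ifi35 had log2 fold changes of 0.34 and 0.18 and were not called (adjusted p = 0.471 and 0.604 by limma).

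Levels of different ISGs were compared per kilobase of exon. Bst2 had the highest mean in both groups, at 4553 normalized counts per kilobase in controls and 6584 at CNV d3. In controls Rtp4 (1682 per kilobase), Igtp (1627) and Ifit3 (1283) followed. The control rank of Rtp4 depends on replicates 1 and 3, at 6573 and 8211 normalized counts, against 1383 to 1843 in the other controls. At CNV d3 Ifit3 (2747), Isg15 (2301) and Rtp4 (2254) came next, while Igtp stood eighth at 1291. Ifi207 moved from rank 20 in controls to rank 10. Bases shared with other genes count in the exon length, though their reads were not counted. They were 51.2% of the windows of Ifit3 and 13.9% of the exon bases of Rtp4, so such levels may be underestimated.

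The spread between controls was examined next, over the 48 ISGs with a control mean of at least 50 normalized counts. The SD of log2(normalized counts + 1) between controls had a median of 0.78 over these ISGs and 0.42 over the 10644 genes of that level, and between CNV d3 samples the medians were 0.40 and 0.25. In 45 of 48 ISGs (93.75%) the controls were more spread than the CNV d3 samples, as in 81.2% of all genes. The ratio of the highest to the lowest control had a median of 3.76 over the ISGs and 2.09 over all genes. Without control replicate 3 the median SD between controls fell from 0.78 to 0.64, and without control replicate 1 to 0.72. The largest control SDs belonged to Ifi213 (3.87), Gbp5 (3.23), Mx2 (3.05), Oas1g (2.60) and Oas3 (2.27), in each of which a control was at or near 0. Ifih1, Dtx3l, Gbp3 and Ifit1, at 0.24, 0.33, 0.34 and 0.40, were less spread between controls than the median gene.

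**Figure D4:**
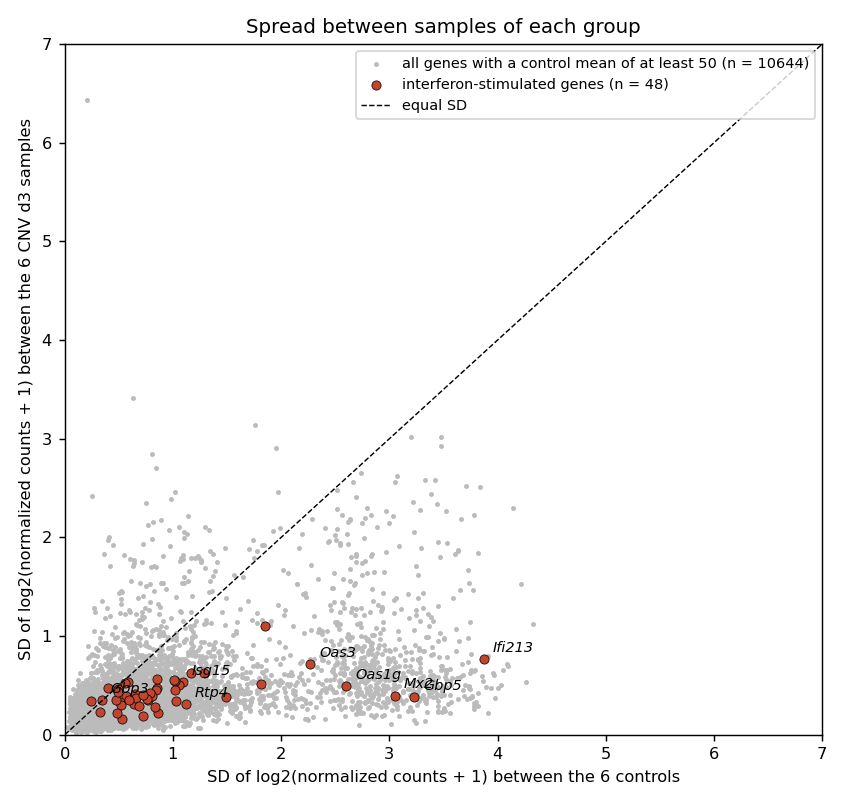
SD of log2(normalized counts + 1) between the 6 controls (x axis) and between the 6 CNV d3 samples (y axis) for the 48 ISGs with a control mean of at least 50 (red) and all 10644 such genes (grey), with a dashed line of equal SD. All but 3 of the ISGs lie below the line, and Ifi213, Gbp5 and Mx2 lie farthest to the right.

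The same control samples were high in most ISGs. Control replicates 1 and 3 were the 2 highest controls in 39 of the 48 ISGs (81.25%), and in 7.91% of all genes. Control replicate 3 was the highest control in 28 and replicate 1 in 17. The median ISG was 2.03-fold higher in control replicate 1, and 2.07-fold higher in control replicate 3, than the median of the other 5 controls, on the scale of normalized counts + 1, whereas the other 4 controls gave ratios of 0.729 to 0.943. The 9 ISGs with another order were Ifit1, Oas2, Mx1, Mx2, Gbp2, Gbp3, Gbp5, Gbp7 and Parp14, so that all 4 guanylate-binding proteins were among them. Gbp3, for example, was at 266 normalized counts in control replicate 3, the lowest of its controls.

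These 2 controls reached the range of the CNV d3 samples. Control replicate 1 lay above the lowest CNV d3 sample in 33 of the 48 ISGs and control replicate 3 in 36, against 3 to 7 for the other controls. In 15 ISGs (31.2%) at least 1 control was above the CNV d3 median, a lower share than the 81.5% of all genes of that level. In 7 (14.6%), Usp18, Isg20, Rtp4, Igtp, Slfn8, Ifi35 and Phf11d, the highest control was above all CNV d3 samples, as in 65.4% of all genes of that level. The mean of log2(normalized counts + 1) over the 52 ISGs was 9.47 and 9.40 in control replicates 1 and 3 and 7.88 to 8.61 in the other 4. CNV d3 replicate 1 had a mean of 9.48 and the other 5 CNV d3 samples 10.11 to 10.62.

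CNV d3 replicate 1 stood low in its group, as the lowest CNV d3 sample in 45 of 48 ISGs (93.75%) and in 18.6% of all genes. It also had the smallest monocyte marker sum at CNV d3, 755 normalized counts, and the largest microglial marker sum, 1135280. CNV d3 replicate 6 was the highest CNV d3 sample in 32 of the 48 and replicate 3 in 13. The part of these markers in the ISG levels was not tested.

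Ifnb1, the gene of interferon beta, was detected in the same 2 controls. It was at 41 normalized counts in control replicate 1, at 446 in control replicate 3 and at 0 in the other 4 controls, and from 0 to 23.6 at CNV d3, with a median of 18.7 (log2 fold change 0.98 ± 1.54 SE, adjusted p = 0.674 by limma). The highest Ifnb1 value of the 12 samples was thus in a control. Markers of other cells gave the following values in these controls. The sum of 5 border macrophage markers was 706 in control replicate 1 and 1726 in control replicate 3, with a control median of 361, while the CNV d3 samples lay at 155 to 469. In control replicate 3 Mrc1 was at 758, Lyve1 at 564, Pf4 at 333, Cbr2 at 70.9 and Cd163 at 0. In control replicate 1 Mrc1 was at 594, Pf4 at 60.1, Cd163 at 52.6 and both Lyve1 and Cbr2 at 0. Lyve1 was at 0 in every control but replicate 3. Rod photoreceptor markers summed to 7437 in control replicate 3, the highest control, and to 865 in control replicate 1, the lowest. At CNV d3 the rod sum ranged from 645, in replicate 1, to 13026. The part of these markers in the ISG levels was not tested.

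**Figure D5:**
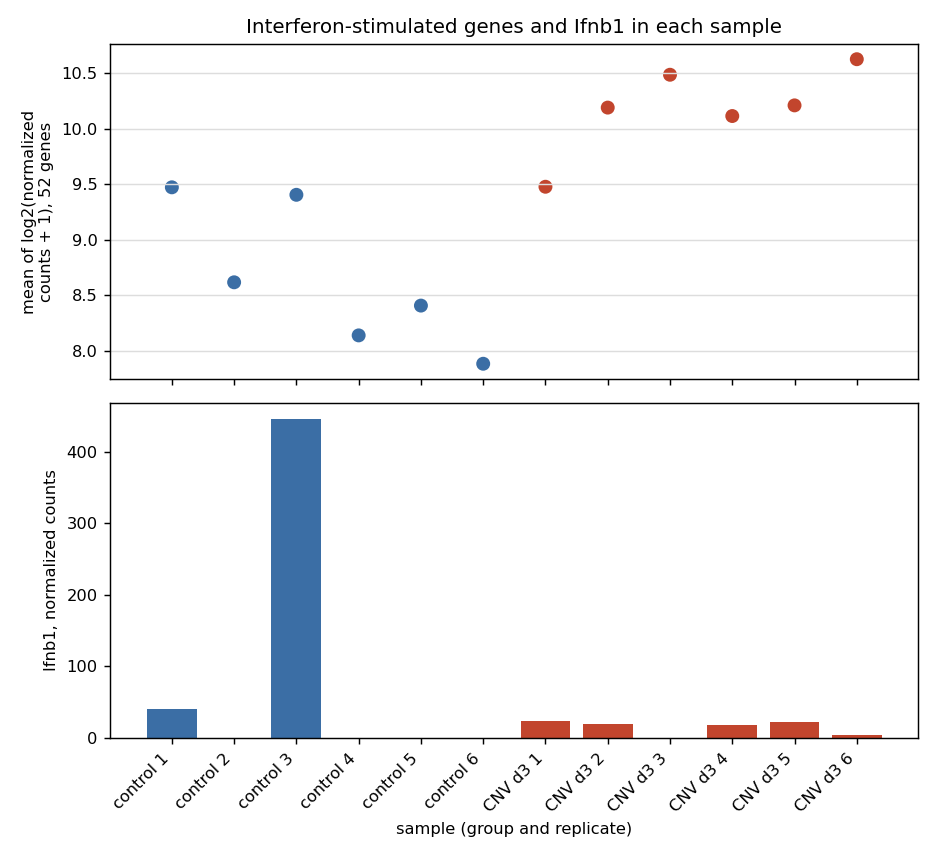
Mean of log2(normalized counts + 1) over the 52 ISGs (upper panel) and normalized counts of Ifnb1 (lower panel, from 0) in each of the 12 samples. Control replicates 1 and 3 have ISG means of 9.47 and 9.40, next to CNV d3 replicate 1 at 9.48, and are the only controls with Ifnb1 reads.

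The genes of the signalling pathway that are not among the 52 were counted from a list of ligands, receptors, kinases, transcription factors, sensors and negative regulators. Of 47 listed, 39 were in the table, and 9 of these were higher and 7 lower at CNV d3, with a median log2 fold change of 0.04. Of all genes 8.29% were higher and 4.57% lower. A mean of at least 50 normalized counts was reached by 35 of the 39. At that level 14.9% of the 10756 genes were higher and 1152 were lower. Irf7, the interferon regulatory factor that amplifies the type I response, was at 951, 1076 and 3749 normalized counts in controls and 2965, 5619 and 7373 at CNV d3 (log2 fold change 1.82 ± 0.33 SE, adjusted p = 0.00193 by limma). Stat2 rose from a median of 1076 to 3958 (log2 fold change 1.45 ± 0.33 SE, adjusted p = 0.00881 by limma). Ifnar1 rose by a log2 fold change of 0.48 (adjusted p = 0.0453 by limma), a call that was lost in 10 of the 12 fits without a library. The other higher genes were Jak2 (0.82), Tyk2 (0.67), Ikbke (5.79, from a control median of 0), Socs3 (1.42), Ptpn11 (0.72) and Samhd1 (0.97), given as log2 fold changes.

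Lower genes of the pathway included abundant receptors and the DNA-sensing adaptor. Sting1 fell from 15750, 19383 and 21307 normalized counts in controls to 7836, 10858 and 14612 at CNV d3 (log2 fold change -0.81 ± 0.12 SE, adjusted p = 0.000533 by limma), without overlap. Ifngr1, Ifnar2, Irf5 and Pias1, a receptor chain each of interferon gamma and of type I interferon, a regulatory factor and a negative regulator of the pathway, had log2 fold changes of -0.48, -0.38, -0.40 and -0.42 (adjusted p = 0.0211, 0.0267, 0.00478 and 0.0122 by limma). The calls of Ifngr1 and Ifnar2 were lost in 8 and 5 of the 12 fits without a library, those of Irf5 and Pias1 in 0. Irf2 and Mavs fell too, with -0.72 and -0.46 on that scale. In Sting1, Irf5, Irf2, Mavs and Irf8 every CNV d3 sample lay below every control. Irf8 was not called (log2 fold change -0.26, adjusted p = 0.0650 by limma). That pattern was found in 691 of the 10756 genes with a mean of at least 50. Microglial markers fell in the same samples, and the part of that shift was not tested. Irf9 and Irf1 were not called, with log2 fold changes of 0.02 and -0.31 (adjusted p = 0.946 and 0.160 by limma).

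Close relatives of the 52 from the same families were counted in the same way, 32 of 35 being in the table. Of these 8 were higher and 0 lower by limma, with a median log2 fold change of 1.42. Of all genes 8.29% were higher and 4.57% lower. An unadjusted p under 0.05 was given to 20 of the 32, and to 6892 of all 27299 genes. A mean of at least 50 normalized counts was reached by 20 of the 32, a level where 14.9% of genes were higher. Parp12 and Phf11b, with the highest mean normalized counts of the 8, had medians of 1574 and 1787 in controls and 4529 and 3972 at CNV d3 (log2 fold changes 1.20 ± 0.25 SE and 0.93 ± 0.24 SE, adjusted p = 0.00474 and 0.0200 by limma). The call of Phf11b was lost in 9 of the 12 fits without a library and that of Parp12 in 0. The others were Gbp4, Ifit1bl1, Slfn9, Phf11a, Parp10 and Trim25, with log2 fold changes of 5.10, 3.88, 3.39, 1.52, 0.97 and 0.89. Gbp4 had a control median of 0 and Ifit1bl1 a control at 0, so their fold changes rest on the pseudocount. The edgeR test called 4 of the relatives higher, and 2 to 9 were called in the fits that left out a library, with 2 without control replicate 2 or CNV d3 replicate 6, 3 without CNV d3 replicate 2 or 3, and 4 without control replicate 5 or CNV d3 replicate 4 or 5.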

How the data were processed

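RNA of sorted retinal microglia was amplified with the SMARTer v4 kit and sequenced as single reads. The authors aligned reads with STAR 2.7.2b to GRCm38.p6, merged the runs of each sample, counted reads with featureCounts 1.6.4 at default settings, without strand and without multi-mapping reads, removed genes with 0 reads in all samples and normalized counts with DESeq2 1.22.2 in R 3.5.3. The deposited values are these size-factor-normalized counts, a signal per gene, of 12 samples. These samples fill 19 entries, and a sample with 2 entries was counted once. Every control had 2 entries, whereas at CNV d3 replicate 4 had 2 and each other replicate 1. The number of entries thus nearly followed the group. The methods describe 2 merged files for every sample, and whether the entries mark a difference in sequencing is not stated. Its part in the group differences was not tested. The table's columns of group means, fold changes and p-values were not used. In every sample 100% of values were whole multiples of the value of 1 read (tolerance 0.01), so reads were recovered for edgeR and DESeq2.

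log2(value + 1) was fitted for all 27299 genes with limma 3.58.1 in R 4.3.3 (variance trend, Benjamini-Hochberg), with adjusted p under 0.05, and for DEGs also a log2 fold change above 1.5, as the threshold. Fold changes are on that scale, where those of low genes depend on the pseudocount. The count tests were edgeR 4.0.16 (quasi-likelihood) and DESeq2 1.42.0, and 22 alternatives in all were run. Genes described in full were the 2 most abundant members of each role, all DEGs and the 5 with the largest control SD, and of the lists the 10 most abundant called genes. Other genes are named where a count turned on them. Members and lists were chosen with earlier results of these data known. Samples were not paired by replicate number, since the labels do not say what equal numbers share. Deviations of same-numbered samples correlated at -0.046 to 0.064 over 10756 genes, which cannot show whether they were handled together. Gene coordinates, exon overlap and shared 50-base windows came from a Gencode annotation of GRCm38, and promoters from RefSeq. Depth sets the counting error, and 3 reads were 2.22 to 5.96 normalized counts.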

Additional observations from a re-analysis of the deposited data

Results flagged for a closer look

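In the 104 groups of 6 values (52 ISGs in control and in CNV d3), 8 held a sample far from the other 5 by Dixon's criterion. Its rate of about 1 in 20 groups holds for independent, normal values and gives no expected count here. The ISGs vary together across samples, and a group with 5 values at 0 and 1 above is always flagged. CNV d3 replicate 1 was far below the other CNV d3 samples in Ifit1 (1220.5 normalized counts), Ifit2 (3709), Herc6 (551) and Rsad2 (1276). Control replicate 6 was at 0 in Oas1g and control replicate 4 at 0 in Mx2. Ifi47 was at 1.602 in CNV d3 replicate 5 and at 0 in the other 5, and Slfn1 at 2.15 in control replicate 1 and at 0 in the other 5. The cause was not tested for any of them.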

How the results depend on the processing

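Over 22 alternatives no result changed direction. The count of ISGs called higher was 24 to 35 in the alternatives that kept all samples (33 in the report), 26 with reads thinned to the shallowest sample and 24 without a variance trend, which stayed within 1.5 times of it. Leaving out a library gave 14 to 36 ISGs called higher, 10 to 19 increased DEGs (11 without control replicate 4, 10, 10, 11 and 10 without CNV d3 replicates 2, 3, 5 and 6), a median log2 fold change of 1.13 to 1.49, a median control SD of 0.64 to 0.86, 5 to 10 pathway genes higher, 5 to 8 lower and 2 to 9 relatives higher. The pathway count of 5 was without CNV d3 replicate 6. Relatives called higher were 4 with edgeR and 5 without a variance trend, and pathway genes called lower were 3 without a variance trend. The cause was not tested. With the replicate number as a block 31 ISGs were called higher and 16 were increased DEGs. Whether equal numbers mark samples handled together is not stated. The single named genes gave 826 values on the same side of the threshold as in the report, 155 that lost their call and 8 that gained it. Of the low values, those of Ifi47 and Slfn1 are near the limit of 3 reads, and the control libraries were shallower than the CNV d3 libraries.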
